A study of Mus musculus with 2 samples.

Results

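The 5 genes described here encode the coat of caveolae: the caveolins *Cav1* and *Cav2* and the cavins *Cavin1*, *Cavin2* and *Cavin3*. They were taken as a list from the 32285 genes counted in both libraries. They were chosen by their measured values: lower levels and detection in melanocytes of the hair bulb than in early-anagen melanocyte stem cells (McSCs), and their levels in cells with and without *Oca2*. Both contrasts are therefore descriptions and support nothing further. All 5 genes were found in both count tables.

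Caveolae are small flask-shaped pits of the plasma membrane, rich in cholesterol and glycosphingolipids. Caveolin 1, a hairpin protein of the inner leaflet, and cavin 1, a cytosolic trimer-forming protein, are both needed to build them in most non-muscle cells. Caveolin 2 and cavins 2 and 3 join as partners that depend on these scaffolds for their stability or recruitment. Caveolae flatten when the membrane is stretched, and are best known from endothelial cells, adipocytes, muscle and fibroblasts.

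Both libraries were made from GFP-positive, DAPI-excluded cells sorted from *Dct* rtTA; tetO H2B-GFP mice that ate doxycycline chow, so the reporter marked cells with an active *Dct* transgene. Early-anagen cells came from back skin of mice depilated at 8 weeks of age, taken 4 days after depilation when hair follicles were in anagen II. Bulb cells came from microdissected bulbs of mice aged 5 weeks, with follicles in anagen VI. In each library the cells of 4 mice were combined, and the telogen library was not analysed here. The early-anagen library was made with version 3 of the droplet chemistry after trypsin, and the bulb library with version 2 after EDTA, collagenase and dispase. Stage, age, depilation, dissociation and chemistry therefore changed together and cannot be told apart.

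Melanocytes were cells with a *Dct* unique molecular identifier (UMI, 1 counted transcript), fewer than 3 UMIs of *Krt10* and *Krt14*, and under 5% mitochondrial UMIs. They needed more than 10000 UMIs in the early-anagen library and more than 5000 in the bulb library. This kept 2785 of 11010 early-anagen barcodes, with a median of 24528 UMIs and 75718468 in all, and 3734 of 4327 bulb barcodes, with a median of 14286.5 UMIs and 55883067 in all. All 8 melanocyte markers were detected in most cells of each group. The libraries shared 1 barcode, which did not pass the limits in both. Levels are the summed UMIs of a gene per 1000000 UMIs of the same cells (CPM). With 1 library per stage no test was possible, and every interval is an exact 95% interval that covers counting error only.

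In GRCm38, *Cav2* occupies 17281185 to 17289115 of chromosome 6, and *Cav1* follows on the same strand from 17306335 to 17341452, 17220 bases further on. *Cavin1* lies on chromosome 11 from 100956733 to 100970887 and *Cavin3* on chromosome 7 from 105480083 to 105482300, both on the minus strand. *Cavin2* lies on chromosome 1 from 51289126 to 51302960 on the plus strand. The sequences upstream of 3 of these genes are shown because the genes were low together in the bulb, and show whether their promoters share letters. They are the 250 bases before the RefSeq start (GRCm38.p6, plus strand, 5′ to 3′), at chr6:17306085-17306334 for *Cav1*, chr6:17280935-17281184 for *Cav2* and chr1:51288876-51289125 for *Cavin2*. Capitals mark matches, on either strand, to the GC box GGGCGG, the TATA box TATAAA and the AP-1 site TGANTCA:
Cav1: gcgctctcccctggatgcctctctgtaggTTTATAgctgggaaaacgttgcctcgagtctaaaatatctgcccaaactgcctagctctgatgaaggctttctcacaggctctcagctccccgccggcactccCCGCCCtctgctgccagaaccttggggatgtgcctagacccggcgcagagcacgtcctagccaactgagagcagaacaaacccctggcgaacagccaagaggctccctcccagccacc
Cav2: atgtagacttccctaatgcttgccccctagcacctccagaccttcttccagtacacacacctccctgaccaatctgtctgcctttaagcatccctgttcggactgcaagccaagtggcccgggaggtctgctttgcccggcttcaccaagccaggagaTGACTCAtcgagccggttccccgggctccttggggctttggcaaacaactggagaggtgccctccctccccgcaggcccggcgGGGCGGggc
Cavin2: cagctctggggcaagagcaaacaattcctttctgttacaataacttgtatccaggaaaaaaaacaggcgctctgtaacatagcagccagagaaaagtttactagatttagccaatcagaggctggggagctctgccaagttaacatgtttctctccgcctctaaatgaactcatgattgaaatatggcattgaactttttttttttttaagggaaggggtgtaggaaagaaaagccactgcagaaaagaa
The *Cav1* window held 1 match to the TATA box letters and 1 to the GC box, both on the minus strand, opposite to the gene. The TATA match lay near the upstream end of the window, far from the start. The *Cav2* window held 1 AP-1 site and 1 GC box, and the *Cavin2* window none of these motifs. Among 27025 windows, 1 per gene, 32.9% held the GC box, 13.0% the TATA box and 6.87% the AP-1 site. No window of the 3 held the letters CATGTG or CACGTG, the E-boxes read by MITF, or GGAATG, a TEAD core, which stood in 12.2%, 6.05% and 12.6% of all windows. GC content was 59.6% for *Cav1*, 62% for *Cav2* and 40.4% for *Cavin2*, beside a median of 52% over all windows. The 3 windows thus differed in base composition and no motif of this search stood in all 3. A match is a description and does not mark a bound site.

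All 5 caveola genes were lower in the bulb library, from 5.63-fold for *Cavin2* to 1515-fold, on 2 UMIs, for *Cavin3*. Each was past 2-fold, as were 32.1% of the 11288 genes with a mean of at least 1 CPM, while 15% of these were more than 2-fold higher. With a mean of at least 10 CPM the shares were 25.8% lower and 16.4% higher, and over genes with any UMI 33.3% and 22.5%. The caveola genes had a median log2 ratio (bulb over early anagen) of -4.77, beside -0.31 for those 11288 genes. The genes were chosen on this contrast, so nothing is read from their count.

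*Cav1*, the scaffold of caveolae, had 1091 UMIs in early-anagen McSCs, or 14.4 CPM (13.6 to 15.3). In bulb melanocytes 12 UMIs were counted in 11 of the 3734 cells, or 0.215 CPM (0.111 to 0.375). This is 67.1-fold lower (38.3 to 130). *Cav1* was therefore close to absent from the bulb cells at this depth. *Cav2*, the partner that forms mixed oligomers with caveolin 1, stood at 83.5 CPM (81.5 to 85.6) in the early-anagen cells. In the bulb cells it stood at 9.05 CPM (8.28 to 9.88). It was 9.22-fold lower (8.42 to 10.1), with 506 UMIs left in 399 bulb cells. The fold of *Cav1* was thus larger than that of its neighbour *Cav2*, with counting intervals apart.

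*Cavin1*, the cavin on which the coat depends, stood at 97.7 CPM (95.5 to 99.98) in early anagen and 3.58 CPM (3.10 to 4.11) in the bulb, 27.3-fold lower (23.7 to 31.6). *Cavin2*, which helps to shape the membrane of the pit, was at 285.9 CPM (282 to 290) and 50.8 CPM (48.9 to 52.7). Its 5.63-fold difference (5.41 to 5.86) was the smallest of the 5. *Cavin2* was still counted 2838 times in bulb melanocytes, in 39.9% of the cells. *Cavin3*, a cavin also known to bind protein kinase C delta, had 4106 UMIs in early-anagen McSCs, or 54.2 CPM (52.6 to 55.9). In bulb melanocytes 2 UMIs were found in 2 cells, or 0.0358 CPM (0.00433 to 0.129), a ratio of 1515 (419 to 12516). Of the 5 genes, *Cav1* and *Cavin3* were thus nearly undetected in the bulb and *Cavin1* was low, but *Cav2* and *Cavin2* were lower and not lost.

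**Figure D1:**
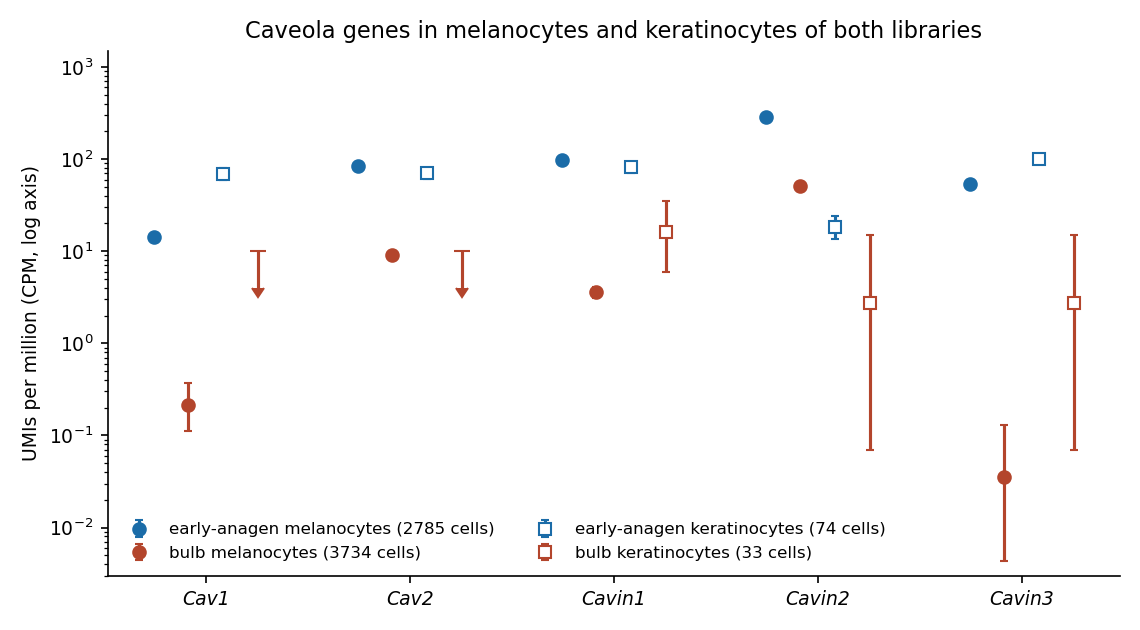
Level of the 5 caveola genes (CPM, log axis) in melanocytes (circles) and keratinocytes (open squares) of the early-anagen (blue) and bulb (red) libraries, 1 library each. Bars are exact 95% Poisson intervals and arrows start at the upper limit for a gene with 0 UMIs. *Cav1* and *Cavin3* sit lowest in bulb melanocytes, at 0.215 and 0.0358 CPM, and the bulb keratinocytes lie below the early-anagen ones for each gene, with intervals that overlap for *Cavin2*.

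Depth differed between the libraries, so detection was compared after random draws of 5000 UMIs per cell. *Cavin2* then had a UMI in 68.5% (66.7 to 70.2) of the early-anagen cells and 19.9% (18.6 to 21.2) of the bulb cells. *Cavin1* was detected in 39.9% (38.0 to 41.7) and 1.87% (1.46 to 2.36), and *Cav2* in 31.4% (29.7 to 33.1) and 4.04% (3.43 to 4.73). *Cavin3* was found in 22.9% (21.4 to 24.5) of early-anagen cells but in 0 of 3734 bulb cells, where a bound of 3 counts is a share of 0.0803%. *Cav1* was detected in 7.18% (6.25 to 8.20) and in 0.134% (0.0435 to 0.312). With all UMIs the shares in early-anagen McSCs were higher, between 27.4% for *Cav1* and 95.2% for *Cavin2*, and in the bulb they ranged from 0.0536% for *Cavin3* to 39.9% for *Cavin2*. The intervals of the 2 groups stood apart for every caveola gene at either depth, but the genes were chosen on this contrast. How many of all genes do the same was not counted, so nothing is read from it.

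Detected transcripts of the 5 genes were counted per cell as well. At 5000 UMIs, 90.1% of early-anagen McSCs held at least 1 of the 5 genes and 19.96% held at least 3. In bulb melanocytes the same shares were 24.1% and 0.0803%, the latter being 3 cells. The median was 2 genes per early-anagen cell and 0 per bulb cell. With all UMIs, 26 bulb cells (0.696%) held 3 or more caveola genes. These had a median of 20207 UMIs, above the 14286.5 of all bulb melanocytes, and each had an *Oca2* UMI. These 26 cells held 5 of the 12 *Cav1* UMIs but 1.69% of the *Cavin2* UMIs. Cells of very high UMIs can be doublets, and no doublet caller was run here.

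**Figure D2:**
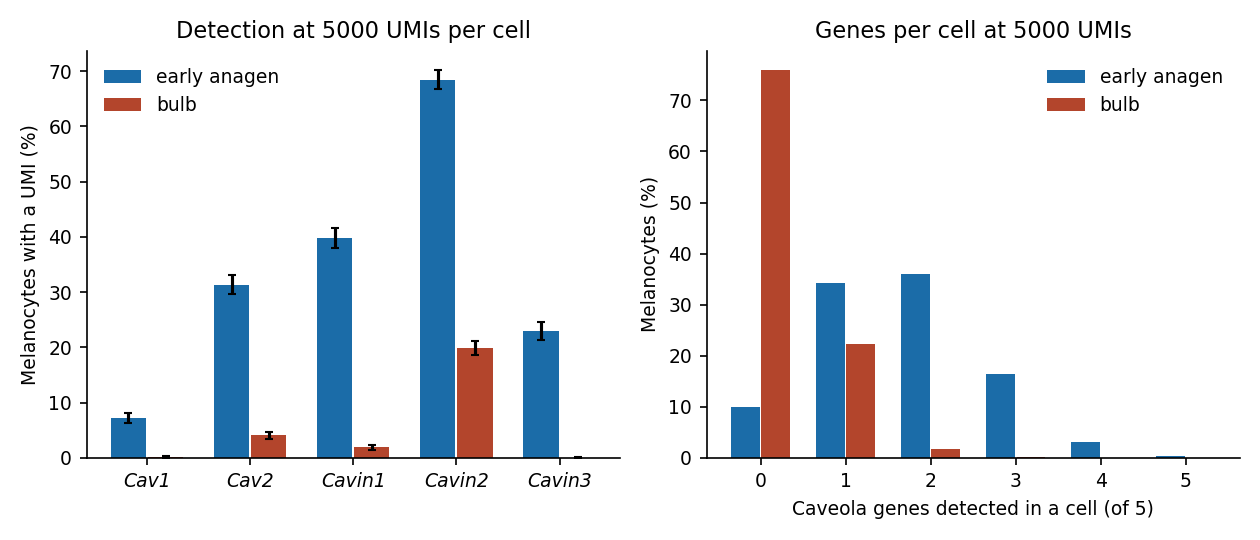
Left, share of melanocytes (%) with a UMI of each caveola gene after thinning to 5000 UMIs per cell, with exact binomial 95% intervals. Right, share of melanocytes (%) by the number of caveola genes detected at that depth. Early-anagen cells peak at 2 genes (35.9%) and 75.9% of bulb cells have none.

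The UMI limits differed between the libraries, so cells on either side of them were compared. Early-anagen cells with 7500 to 10000 UMIs, 269 cells left out by the limit, had *Cavin3* at 66.9 CPM, and the 226 cells with 10000 to 12500 UMIs had 72.6 CPM. *Cavin1* was at 152 and 131 CPM in these cells, and *Cav2* at 93.7 and 80.8 CPM. In the bulb, 31 cells with 3750 to 5000 UMIs and 53 cells with 5000 to 6250 UMIs held no UMI of *Cav1* or *Cavin3*. *Cavin2* was at 50.5 CPM (20.3 to 104) outside and 53.5 CPM (30.6 to 86.9) inside that limit. In each library the intervals of all 5 genes overlapped across the limit. The 226 early-anagen cells just inside it were not like all 2785 cells for every gene. In them *Cavin1* was at 131 CPM (117 to 146) against 97.7 over all, and *Cavin3* at 72.6 CPM (62.5 to 83.8) against 54.2. *Cav2*, at 80.8 against 83.5 CPM, was alike. The early-anagen level of some of the genes thus differed with the depth of the cells.

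Caveola genes are strong in endothelial cells, adipocytes and fibroblasts, and basal keratinocytes hold them too, so transcripts of such cells were counted among the melanocytes. The 8 epidermal markers summed to 27.9 CPM in early-anagen and 49.2 CPM in bulb melanocytes, with a UMI in 42.5% and 22.7% of the cells. In the 1815 early-anagen and 2923 bulb cells with no *Krt10* or *Krt14* UMI, the log2 ratio was -6.15 for *Cav1*, -3.24 for *Cav2*, -4.84 for *Cavin1*, -2.49 for *Cavin2* and -10.22 for *Cavin3*, close to those over all cells. In early-anagen McSCs the endothelial markers *Cdh5*, *Tie1* and *Cldn5* were at 0 UMIs, and *Pecam1* and *Kdr* at 8 UMIs each. The 7 endothelial markers summed to 16.2 CPM in the early-anagen and 1.65 CPM in the bulb cells, and *Egfl7* alone gave 15.9 and 1.61 CPM. The 6 fibroblast markers summed to 1.32 and 0.823 CPM, and the 6 mural markers to 0.74 and 0.0716 CPM. The 4 adipocyte markers summed to 0.621 and 38.8 CPM, all of it *Fabp4* in the bulb, where 57 cells held it. In early-anagen McSCs the 5 immune markers gave 17.6 CPM, of which *Cd74* was 14.2, and in bulb melanocytes they gave 7.50 CPM. The 4 Schwann markers summed to 193 and 437 CPM, with a UMI in 93.2% and 97.4% of the cells. Only 114 early-anagen and 73 bulb cells held no UMI of the 6 lists other than the epidermal one. In these the log2 ratio was -1.92 for *Cav1*, -2.14 for *Cav2*, -5.12 for *Cavin1*, -1.82 for *Cavin2* and -3.61 for *Cavin3*, where a gene at 0 UMIs stands at its bound of 3 counts. Each gene was thus still past 2-fold in those few cells, and the part of other cell types beyond this was not tested.

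Keratinocytes sorted along with the melanocytes were looked at as a check on the libraries themselves. The planned definition, at least 2000 CPM of *Krt5*, *Krt10* and *Krt14* together, gave 113 early-anagen cells but 1 bulb cell of 6765 UMIs. That cell held none of the 5 genes, and 0 UMIs at this depth allow up to 443 CPM, so the check was not informative. Early-anagen cells of that definition held each gene, with *Cav1* at 68.6 CPM (60.9 to 77.0), *Cav2* at 68.6 CPM, *Cavin1* at 82.0 CPM, *Cavin2* at 55.9 CPM and *Cavin3* at 103 CPM. No cell type of the early-anagen library that should lack these genes was at hand, and the part of free RNA in their detection was not tested.

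A wider definition, chosen after these counts were seen, asked for at least 2000 CPM of 8 epidermal markers together and under 2000 CPM of *Dct*. It gave 74 early-anagen and 33 bulb cells, the latter with 367885 UMIs in all. Cells that also met the melanocyte limits were not left out, so these groups and the melanocytes can share cells. All 5 caveola genes were lower in the bulb cells here too, each past 2-fold, as were 20% of 12116 genes, while 33.9% were more than 2-fold higher. *Cavin3* went from 99.1 CPM (87.8 to 111) to 2.72 CPM (0.0688 to 15.1). *Cavin1* went from 81.7 CPM (71.4 to 92.9) to 16.3 CPM (5.99 to 35.5), on 6 UMIs, and *Cavin2* from 18.2 CPM (13.5 to 23.9) to 2.72 CPM (0.0688 to 15.1), with intervals that overlap. *Cav1* and *Cav2*, at 68.8 and 69.9 CPM in early-anagen keratinocytes, were at 0 UMIs in the bulb ones. By their exact intervals they were at least 6.80-fold and 6.90-fold lower. The cells were not of the same kind: *Krt14*, a basal keratin, was at 8532 CPM in the early-anagen and 220 CPM in the bulb keratinocytes, and *Krt17*, a hair follicle keratin, at 2566 and 7443 CPM. *Fabp4*, a fatty acid binding protein used here as an adipocyte marker, had 0 UMIs in the early-anagen and 8997 CPM in the bulb cells, and *Dcn*, a fibroblast marker, was at 1.07 and 76.1 CPM. Low caveola genes in the bulb library were thus seen in these cells as well, on few UMIs, and cell type, chemistry and dissociation cannot be told apart.

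The caveolin and cavin of striated muscle were near the floor in both melanocyte groups. *Cav3* was at 0 UMIs in both, which allows up to 0.0396 CPM in early-anagen McSCs. *Cavin4* had 5 UMIs in the early-anagen and 40 in the bulb melanocytes, and 103 CPM (73.1 to 142) in the 33 bulb keratinocytes. Neither gene reached 1 CPM in melanocytes of either library.

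Among 7 accessory genes of caveolae, 6 reached a mean of 1 CPM, of which 2 were more than 2-fold lower in the bulb and none more than 2-fold higher. That is near the 32.1% lower of all genes, so the count does not set the list apart. Their median log2 ratio was -0.63, beside -0.31 over all genes. *Ehd2*, the ATPase that sits at the caveolar neck and holds it at the membrane, went from 6.66 CPM (6.09 to 7.26) to 0.0716 CPM (0.0195 to 0.183), from 504 to 4 UMIs. *Ehd2* was thus 93.0-fold lower (36.1 to 343). *Flna*, the actin crosslinker that anchors caveolae to stress fibres, went from 59.7 to 19.7 CPM. Log2 ratios were -0.75 for *Ehd4*, -0.51 for *Ehd1*, 0.49 for *Pacsin2* and 0.64 for *Pacsin3*, which encode membrane-bending proteins of wider use. *Ror1*, a receptor known to steady caveolin 1 and cavin 1, had 18 UMIs and 0 UMIs. *Ehd2* was thus low with the coat genes, and the other *Ehd* and *Pacsin* genes were within 2-fold. Keratinocytes of the wider definition had *Ehd2* at 29.6 CPM in the early-anagen and 2.72 CPM in the bulb library, the latter on 1 UMI.

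Other routes of membrane uptake were set beside the caveola genes. The flotillins, scaffolds of a separate kind of lipid microdomain, had log2 ratios of 0.08 for *Flot1* and -0.13 for *Flot2*. Of 10 clathrin coat genes, 3 were more than 2-fold lower and 1 more than 2-fold higher, near the 32.1% and 15% of all genes, with a median near 0. *Picalm*, a clathrin assembly protein, went from 95.7 to 17.0 CPM, *Cltc*, the clathrin heavy chain, from 188 to 73.7 CPM, and *Cltb*, a light chain, from 103 to 50.3 CPM. *Ap2m1*, a subunit of the clathrin adaptor, went from 182 to 531 CPM. Log2 ratios were 0.33 for *Clta*, 0.29 for *Ap2a1*, -0.96 for *Ap2a2*, -0.29 for *Ap2b1*, 0.72 for *Ap2s1* and 0.53 for *Dnm2*, the dynamin that cuts vesicles free. The flotillin and clathrin genes thus lay on both sides of 0. With edgeR TMM scaling every log2 ratio rises by 0.31, which brings the median of all genes to 0.01, that of the flotillins from -0.02 to 0.29 and that of the clathrin genes to 0.31.

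Caveolae depend on membrane cholesterol, and genes of its synthesis were higher in the bulb. Of 11 genes, 6 were more than 2-fold higher in bulb melanocytes, as were 15% of all genes, and none more than 2-fold lower, with a median log2 ratio of 1.28. *Fdft1*, squalene synthase, went from 27.8 to 199 CPM, *Sqle*, squalene epoxidase, from 47.4 to 280.2 CPM, and *Dhcr7*, a reductase of the final steps, from 40.6 to 239 CPM. *Lss*, lanosterol synthase, went from 9.39 to 34.1 CPM, and *Insig1*, a sterol sensor, from 80.0 to 194 CPM. Among the genes within 2-fold, log2 ratios were 0.67 for *Hmgcs1*, 0.53 for *Srebf2* and 0.17 for *Idi1*. These act before squalene is made or regulate the pathway. Keratinocytes of the wider definition differed in the same direction, with 7 of the 11 genes more than 2-fold higher in the bulb library. None were more than 2-fold lower there, beside 33.9% higher and 20% lower of all genes, and the median was 1.22.

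Caveola genes are known targets and partners of YAP, a transcription cofactor that responds to stretch. Of 7 YAP targets, 5 reached a mean of 1 CPM and 4 of these were more than 2-fold lower in the bulb, beside 32.1% of all genes, with a median of -1.47. *Ccn2*, a secreted matricellular protein, went from 1116 UMIs to 0, at least 223-fold lower by its exact interval. *Lats2*, a kinase that restrains YAP, went from 39.1 to 5.44 CPM, and *Amotl2*, a YAP-binding scaffold, from 29.4 to 10.6 CPM. *Ccn1*, a relative of *Ccn2*, was at 241 and 259 CPM. *Ajuba* was at 2.44 and 1.22 CPM, *Axl* at 1.35 and 0.143 CPM, and *Ankrd1* had 1 UMI and 0 UMIs. *Ccn2* was thus undetected in bulb melanocytes while its relative *Ccn1* was at a like level in both melanocyte groups. Of the YAP targets, 6 reached a mean of 1 CPM in the keratinocytes of the wider definition. There 4 were more than 2-fold lower in the bulb library and 1 more than 2-fold higher, with a median of -1.35. The shares of all genes were 20% and 33.9%.

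Genes that cells raise during dissociation differed between the libraries as well. Of 10 such genes, 5 were more than 2-fold lower in bulb melanocytes and none more than 2-fold higher, beside 32.1% and 15% of all genes, with a median of -1.12. The heat shock genes *Hspa1a* and *Hspa1b* went from 351 to 5.06 CPM and from 257 to 0.125 CPM, *Atf3* from 244 to 24.4 CPM, *Egr1* from 36.6 to 5.96 CPM and *Fosb* from 109 to 34.5 CPM. Log2 ratios were -0.58 for *Jun*, -0.38 for *Dnaja1*, 0.15 for *Ier2*, 0.49 for *Junb* and 0.78 for *Fos*. In the keratinocytes of the wider definition 7 of the 10 were more than 2-fold lower in the bulb library and none more than 2-fold higher, beside 20% and 33.9% of all genes. Their part in the caveola difference was not tested.

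**Figure D3:**
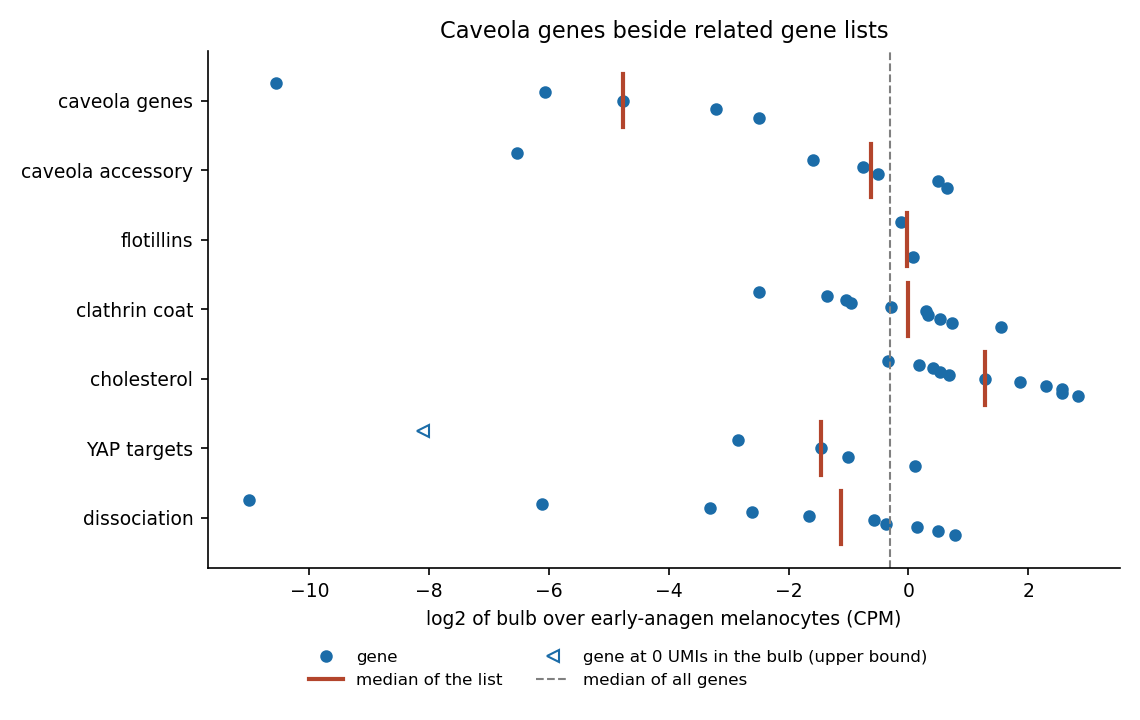
Log2 ratio of bulb over early-anagen melanocytes for each gene with a mean of at least 1 CPM, by list, with the median of each list (red bars) and of all 11288 genes (dashed line, -0.31). The caveola genes lie between -10.57 and -2.49, the flotillins near 0, and the median of the cholesterol genes is 1.28.

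Neighbouring genes on the chromosomes did not share one direction. *Met*, the next protein-coding gene after *Cav1*, went from 106 to 45.6 CPM, and *Tes*, the next before *Cav2*, from 10.4 to 13.8 CPM. *Stat3* and *Atp6v0a1*, on either side of *Cavin1*, had log2 ratios of 0.54 and 0.17. Beside *Cavin2*, *Tmeff2* went from 164 to 3 UMIs and *Nabp1* from 2.36 to 15.6 CPM. *Smpd1*, next to *Cavin3*, encodes the acid sphingomyelinase of lysosomes and went from 36.4 to 242 CPM. *Cckbr*, on the other side, had no UMI in either group. The antisense transcript *9330175M20Rik* across *Cavin2* had 16 and 0 UMIs, and *Gm15581* across *Cav1* and *Cav2* had 1 and 0. Of the 7 protein-coding neighbours with UMIs, 2 were more than 2-fold lower, 2 more than 2-fold higher and 3 within 2-fold, beside 32.1% lower and 15% higher of all genes.

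Within early-anagen McSCs, cells were split by *Oca2*, a melanosomal transporter gene of late pigmentation, after thinning each cell to 10000 UMIs. *Oca2*-positive cells numbered 307 and *Oca2*-negative cells 2478. *Cavin3* was lower in *Oca2*-positive cells, at 20.2 CPM against 59.7 CPM, 2.96-fold (2.29 to 3.88), and was the only caveola gene past 2-fold, as were 4% of 11489 genes in that direction and 3.36% in the other. *Cav1* was at 9.77 and 16.3 CPM, 1.66-fold lower (1.15 to 2.499). The others were lower by 1.19-fold or less, with *Cav2* at 72.0 and 83.9 CPM, *Cavin1* at 85.7 and 102 CPM, and *Cavin2* at 267 and 294 CPM. All 5 ratios were below 1, as were those of 5368 of the 11489 genes, and the caveola genes were chosen on this split. The 5 counting intervals left out 1, and how many of all genes do so was not counted. Over all 2785 early-anagen cells the variance of the UMIs over their mean ran from 1.22 for *Cav1* to 2.17 for *Cavin2*, where Poisson counts give 1. The intervals do not cover this extra spread, so the small differences of *Cav2*, *Cavin1* and *Cavin2* are uncertain. *Ehd2* was at 3.26 and 7.18 CPM, and *Ehd4* at 24.4 and 48.0 CPM.

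By the number of *Oca2* UMIs, *Cavin3* was at 59.7 CPM (56.7 to 62.8) in cells with none, 24.2 CPM (16.9 to 33.4) in 149 cells with 1, 18.8 CPM (11.8 to 28.5) in 117 cells with 2 to 4, and 9.76 CPM (2.66 to 24.98) in 41 cells with 5 or more. The 3 positive classes had intervals that overlapped. *Cavin1* stood at 95.1 CPM (67.6 to 130) and *Cavin2* at 241 CPM (196 to 294) in the same 41 cells. Both cavins were thus above the 3.58 and 50.8 CPM of bulb melanocytes in the early-anagen cells richest in *Oca2*. *Cav1* in the same 41 cells rested on 2 UMIs.

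The 2785 early-anagen cells were also ordered by the summed UMIs of 12 pigmentation genes other than *Oca2* and *Dct* and cut into 4 bins of like size. From the lowest to the highest bin, *Cavin3* was at 75.6, 64.8, 53.2 and 27.9 CPM, and *Cav2* at 102, 89.5, 76.9 and 62.2 CPM. The outer bins had intervals apart, 69.3 to 82.3 against 24.1 to 32.1 CPM for *Cavin3* and 94.5 to 110 against 56.5 to 68.4 CPM for *Cav2*. So did *Cavin2*, at 309 to 335 against 270.5 to 296 CPM, but its second lowest bin in pigmentation had the lowest level. *Cavin1* was at 108, 103, 94.1 and 94.3 CPM and *Cavin2* at 322, 270.0, 290 and 283 CPM. *Cav1*, with 81 to 132 UMIs per bin, was at 15.9, 15.7, 19.0 and 11.6 CPM. *Cavin3* and *Cav2* were thus lower at each step of pigmentation among these cells, and *Cav1* and *Cavin2* were not. The bins restate part of the *Oca2* split by which the genes were chosen. From the lowest to the highest bin *Oca2* had 2, 16, 68 and 610 UMIs, so the trend is a description too. Each cell has 10000 UMIs here, so more pigmentation UMIs leave fewer for other genes. The median pigmentation UMIs were 85 of 10000 in the lowest and 299.5 in the highest bin.

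**Figure D4:**
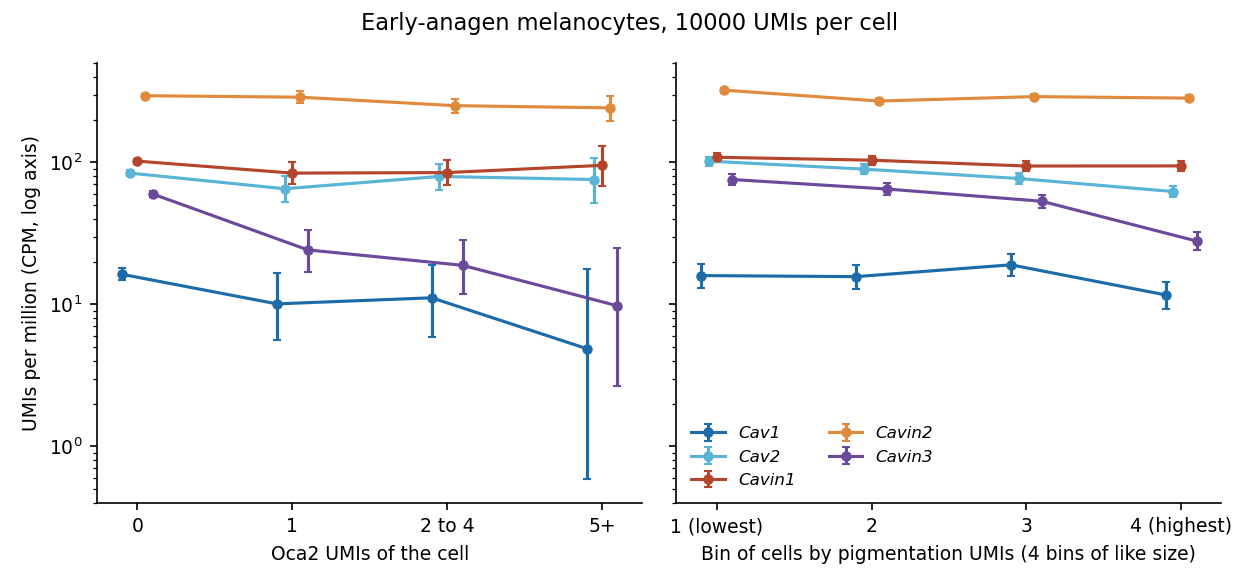
Level of the caveola genes (CPM, log axis) in early-anagen melanocytes thinned to 10000 UMIs per cell, by *Oca2* UMIs of the cell (left) and by bin of the summed UMIs of 12 pigmentation genes (right), with exact 95% Poisson intervals. *Cavin3* goes from 59.7 to 9.76 CPM on the left and from 75.6 to 27.9 CPM on the right, and *Cavin2* lies between 241 and 294 CPM on the left and 270.0 and 322 CPM on the right.

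In the bulb library, cells thinned to 5000 UMIs were split in the same way into 3232 *Oca2*-positive and 502 *Oca2*-negative cells. *Cavin2* was at 48.1 CPM (44.8 to 51.6) in positive and 63.3 CPM (53.9 to 73.99) in negative cells. *Cav2* was at 8.35 and 12.4 CPM and *Cavin1* at 3.65 and 5.18 CPM, with intervals of both ratios that held 1. *Cav1* had 3 and 2 UMIs and *Cavin3* none. No gene of the 3 with a mean of at least 1 CPM was past 2-fold, as against 6.12% of 10588 genes that were more than 2-fold lower and 1.77% more than 2-fold higher. Of the 502 negative cells, 27 held keratinocyte transcripts or little *Dct*. Bulb cells without an *Oca2* UMI at 5000 UMIs were below the early-anagen *Oca2*-positive cells, called at 10000 UMIs, for *Cav2*, *Cavin1* and *Cavin2*. With all UMIs fewer bulb cells lacked an *Oca2* UMI, so many of these 502 cells did hold the transcript. The comparison also crosses the libraries, and the part of *Oca2* state in the bulb difference was not tested.

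The same 4 bins of bulb cells by pigmentation UMIs gave *Cav2* at 12.6 CPM (9.62 to 16.3), 10.9, 5.996 and 6.002 CPM (3.99 to 8.67) from lowest to highest. *Cavin2* was at 48.6, 47.2, 49.9 and 55.1 CPM with overlapping intervals, and *Cavin1* at 5.14 CPM (3.29 to 7.65) in the lowest and 3.22 CPM (1.80 to 5.30) in the highest bin. *Cav2* was thus lower in the more pigmented cells of both libraries, while *Cavin2* was lower in the more pigmented outer bin of early-anagen cells but not of bulb cells.

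The cell cycle, which had no part in choosing the genes, was compared in early-anagen McSCs between 987 cells with a *Mki67* or *Top2a* UMI and 1798 cells without. No caveola gene was past 2-fold, and the shares of 11476 genes past it were 2.06% lower and 5.04% higher in cycling cells. *Cavin3* was at 63.1 and 51.1 CPM and *Cav2* at 88.1 and 79.6 CPM, higher in cycling cells. *Cav1* was at 12.8 and 17.1 CPM, *Cavin1* at 91.7 and 105 CPM, and *Cavin2* at 277 and 299 CPM, lower in cycling cells. The 5 log2 ratios ran from -0.42 for *Cav1* to 0.30 for *Cavin3*, with counting intervals that left out 0 but do not cover extra spread between cells. How many of all genes have such intervals was not counted. The part of depth and of pigmentation in these small differences was not tested.

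Whether the genes were found in the same cells was described in early-anagen McSCs at 10000 UMIs. *Cavin1* was detected in 63.6% of the 374 cells with *Cav1* and in 58.1% of the 2411 without. *Cav2* was detected in 54.8% and 51.3% of the same cells, and *Cavin3* in 38.8% and 36.3%. Pearson correlations of UMIs among the 5 genes ran from 0.00832 for *Cav2* and *Cavin2* to 0.0543 for *Cav1* and *Cavin1*. At this depth these values are too weak to tell co-expression from its absence. In the bulb at 5000 UMIs, *Cavin2* was detected in 27.8% (20.8 to 35.7) of the 151 cells with *Cav2* and in 19.5% (18.2 to 20.9) of the 3583 without. These intervals overlapped, as did those of the other pairs of *Cav2*, *Cavin1* and *Cavin2*, and the highest correlation among them was 0.0385.

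The genes most like the summed caveola UMIs over early-anagen cells were sought among 2815 genes of at least 50 CPM, over 2785 cells thinned to 10000 UMIs. The 8 highest Pearson correlations were 0.26 for *Vim*, the intermediate filament vimentin, 0.20 for *S100a10*, 0.19 for *S100a6*, 0.18 for *Anxa1*, 0.18 for *Cd9*, 0.17 for *Crip1*, 0.16 for *Col12a1* and 0.15 for *Capg*. In bulb melanocytes, *Vim* was at 50.2 CPM against 4602 CPM in early-anagen McSCs, *Cd9* at 13.3 against 659 CPM, *Crip1* at 2.13 against 294 CPM and *Col12a1* at 2.88 against 227 CPM. *S100a10*, at 802 against 610 CPM, was higher in the bulb. The 3 lowest correlations were -0.18 for *Trpm1*, -0.18 for *Atp6v0c* and -0.17 for *Pmel*, of which *Trpm1* and *Pmel* serve pigment cells and *Atp6v0c* the proton pump. These values are small, the genes share cells and depth, and 1 of 2815 genes passed 0.2.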

How the data were processed

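Each stage was sequenced as 1 library. The authors deposited unnormalized counts of UMIs for every gene in every barcode, made with Cell Ranger 6.0.1 on mm10 according to the submitters' processing notes. Bulb and early-anagen cells were selected by the limits given above, with no doublet caller. UMIs were summed over cells and scaled to CPM in Python 3.11.15 (NumPy 2.4.6, SciPy 1.17.1, pandas 2.3.3). Exact intervals were Clopper-Pearson for shares, Poisson for levels and conditional binomial for ratios of summed UMIs. A gene at 0 in a group has a bound at 3 counts over the group, which lies below the upper limit of the exact interval. These intervals cover counting error only, and totals were 75718468 early-anagen and 55883067 bulb UMIs. A call means more than 2-fold between 2 groups with a mean of at least 1 CPM. Ratios and intervals were tested on simulated Poisson counts, which lack extra spread between cells.

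Gene positions came from GENCODE M21 and upstream sequences from RefSeq, which had windows for 4 of the 5 genes. The *Cavin1* window overlapped an annotated exon and was not used. Named genes are the caveola genes, the lists given, chromosomal neighbours, and the 8 highest and 3 lowest correlated genes. Some list members are not reported here. The genes, lists and comparisons were chosen with earlier results of these data known. Alternatives changed the cell limits, depth, *Oca2* and cycling calls, and scaling (edgeR 4.0.16 TMM factors and DESeq2 1.42.0 size factors in R 4.3.3). The scaling tools were used for factors only, since 1 library per stage allows no test.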

Additional observations from a re-analysis of the deposited data

Results flagged for a closer look

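Barcodes outside the limits for melanocytes and for the planned epidermal cells also held caveola transcripts above the bound of 3 counts. In the 8112 such barcodes of the early-anagen library, *Cav1* was at 17.8 CPM, *Cav2* at 75.3 CPM, *Cavin1* at 95.3 CPM, *Cavin2* at 202.1 CPM and *Cavin3* at 61.4 CPM. In the 592 such barcodes of the bulb library, *Cav2* was at 7.92 CPM, *Cavin1* at 10.1 CPM, *Cavin2* at 39.2 CPM and *Cavin3* at 3.08 CPM. A few of them are among the keratinocytes of the wider definition. Others met every melanocyte limit but the one on UMIs, among them the 269 early-anagen and 31 bulb cells just outside it. Part of these values is therefore from melanocytes, and the remaining barcodes were not assigned to a cell type. The *Cavin3* value rests on 7 UMIs in 4 barcodes, 3 of which held no *Dct* UMI.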

How the results depend on the processing

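Bulb against early anagen was a contrast by which the genes were chosen, so its count of genes describes the settings only. The share of all genes was not counted under its 17 alternatives. All 5 caveola genes were more than 2-fold lower in bulb melanocytes under each of these alternatives, which changed cell limits, depth and scaling. Their log2 ratios ranged from -6.28 to -1.92 for *Cav1*, -3.36 to -2.14 for *Cav2*, -5.31 to -4.35 for *Cavin1*, -2.65 to -1.82 for *Cavin2* and -10.72 to -3.61 for *Cavin3*. The smallest sizes, other than for *Cavin1*, came from the 114 early-anagen and 73 bulb cells with no UMI of the 6 non-epidermal marker lists. In that set 2 caveola genes, *Cav1* and *Cavin3*, not 1, were past 2-fold by *Oca2* in early anagen, and *Cav2* and *Cavin1* stood at log2 ratios of 0.39 and 0.40, among 21 positive and 93 negative cells. With all UMIs 1 gene, *Cav2*, not 0, was past 2-fold by *Oca2* in the bulb, at a log2 ratio of -1.12 over 3591 and 143 cells, and depth then differs between the classes. With 8 epidermal markers, an alternative chosen after seeing the data, all 5 had a ratio with its counting interval below 1 in keratinocytes. The planned definition left 1 bulb cell and gave 0 such genes, and with TMM scaling on the cells of 8 markers it was again 5. Of 39 counts compared, 35 stayed within 1.5 times their main value. No epidermal cell of the bulb reached 5000 CPM, so that alternative gave no value, and scaling on the planned 1-cell set was not run. No paired analysis was possible because each stage had 1 library, and for the same reason no library could be left out.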
